A study of Mus musculus with 16 samples.

Results

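The step from 12 to 24 h of exit from naive pluripotency was followed in mouse embryonic stem (ES) cells that had been kept in serum/LIF+2i, by comparing gene counts at 24 h with those at 12 h after the inhibitors, the cytokine and the serum were withdrawn. The comparison rests on 4 of the 16 libraries of the study, 2 at each time, and covers every expressed gene, that is 14288 of the 27179 genes counted. Serum/LIF+2i held 10% fetal bovine serum, leukaemia inhibitory factor (LIF) and a pair of inhibitors, 3 uM CHIR99021 against GSK3 and 1 uM PD0325901 against MEK. The cells had been adapted to it from serum/LIF, and exit was started by washing them and giving a serum-free mix of glutamine-free DMEM and Neurobasal medium with N-2, B-27 and 2 mM glutamine and without LIF or 2i. Cells from serum-free 2i/LIF, collected at the same times (2 libraries at each), are used to show where the step differs. They stayed in their own base medium after LIF and 2i were removed, so the maintenance medium and the base medium of the exit cannot be told apart in any difference between the steps. The labels name no ES cell line or genotype. The protocol text names 24 and 40 h for cells from serum/LIF+2i, whereas the sample titles also give 12 h, and the titles were followed.

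ES cell identity was checked first. Pou5f1, the transcription factor Oct4, stood at 932 and 953 CPM (counts scaled to the library total) in the 12 h libraries and at 827 and 849 CPM in the 24 h libraries, and Sox2, Sall4, Utf1, Lin28a, Nanog, Zfp42, Cdh1 and Epcam were each detected in all 4. Total counts were 7461814 and 9580136 at 12 h and 9065257 and 9634680 at 24 h. Ribosomal RNA genes took 0.636% and 1.21% of the counts at 12 h and 1.77% and 0.796% at 24 h. Replicates correlated across genes with a Pearson's r of 0.992 at 12 h and 0.994 at 24 h, on log2 CPM. Their counts nevertheless differed more than those of the other 6 groups: the chi-square per degree of freedom between replicates was 3.14 at 12 h and 5.42 at 24 h, against 1.39 to 2.62 elsewhere, and 2.04 and 2.88 without ribosomal RNA genes, against 1.35 to 1.89. The p-values rest on a spread between replicates that was estimated over all 16 libraries together, which may be too small for these groups. Nothing in the labels says that replicates came from separate cultures, so that spread may be technical. In bulk RNA, fewer cells of a type and less RNA per cell cannot be told apart.

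Naive ES cells resemble the early epiblast and are held by a network of factors such as Nanog, Esrrb, Tfcp2l1 and Tbx3. When LIF and 2i are withdrawn this network is dismantled and the cells pass through a formative state, marked by Otx2, Pou3f1 and the de novo DNA methyltransferases, in which they become competent for lineage choice. A pair of stress pathways recur below. In the unfolded protein response, unfolded protein in the endoplasmic reticulum (ER) activates the sensors Atf6, Ire1 (Ern1) and Perk, which raise chaperones such as BiP (Hspa5). In the amino acid response, uncharged tRNA or other stresses lead to phosphorylation of eIF2, preferential translation of Atf4, and transcription of genes for amino acid uptake and synthesis. Perk also phosphorylates eIF2, so both pathways meet at Atf4 and at genes such as Ddit3 (Chop).

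Between 12 and 24 h, 6917 genes changed (edgeR's quasi-likelihood test, Benjamini-Hochberg adjusted p under 0.05), which is 48.4% of the genes tested. Of these, 3454 were higher at 24 h (24.2% of the genes tested) and 3463 were lower (24.2%). The median log2 fold change over all genes was 0.01. A change of at least 1 on the log2 scale was reached by 1610 genes (11.3% of those tested), 939 that rose (6.57%) and 671 that fell (4.70%). Rises were more frequent among weakly expressed genes: with the genes cut into 4 equal classes by mean CPM, 67.1% of the calls in the lowest class were higher at 24 h, against 42.5% in the highest. With classes by gene length, 41.4% of the calls were higher among the shortest genes (median -0.04) and 56.6% among the longest (median 0.04). All log2 fold changes below are 24 h minus 12 h with their standard error (SE), n = 2 libraries a group. The gene lists below were written with earlier results of these data known, and no list was tested as a set. Their counts stand beside the 24.2% of all genes tested that rose and the 24.2% that fell.

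From 2i/LIF, 5021 genes changed over the same hours (35.1%), 2486 higher (17.4%) and 2535 lower (17.7%). Of these, 1025 (7.17% of the genes tested) moved by at least 1 on the log2 scale, 593 higher (4.15%) and 432 lower (3.02%). The 2 steps share no library. Total counts from 2i/LIF were 7418253 and 7579351 at 12 h and 7284740 and 6629047 at 24 h. The part of depth in the smaller number of calls from 2i/LIF was not tested. Of the genes that changed from serum/LIF+2i, 52.1% also changed from 2i/LIF, and these 3601 genes are 71.7% of the latter. Of them, 3424 (95.1%) moved the same way and 177 moved in opposite directions. Across all genes tested the log2 fold changes of the 2 steps correlated with a Pearson's r of 0.631 and a Spearman's correlation of 0.610. The difference between the steps passed the test for 2440 genes (17.1%), with 1030 more positive from serum/LIF+2i (7.21%) and 1410 more negative (9.87%). Of these 2440 calls, 1055 were kept with each of the 8 libraries of both steps left out in turn.

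**Figure D1:**
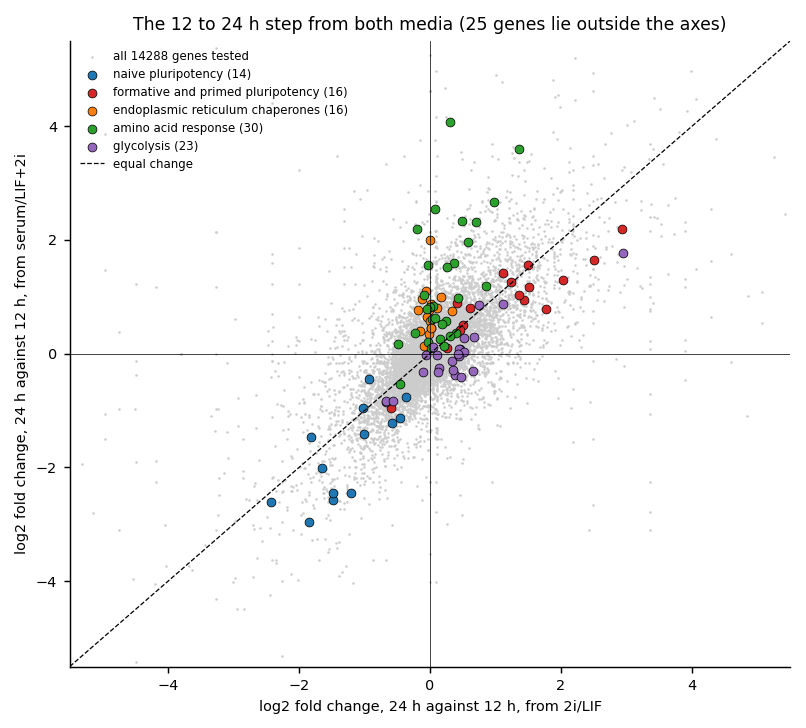
Log2 fold change of each gene from 12 to 24 h in cells from 2i/LIF (horizontal) and from serum/LIF+2i (vertical); grey points are the 14288 genes tested, coloured points are members of 5 gene lists and the dashed line marks equal change, with 25 genes outside the axes. The ER chaperones lie above the dashed line near 0 on the horizontal axis, most amino acid response genes also lie above the line, and naive genes lie in the lower left.

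The naive network fell steeply. Of 14 naive pluripotency genes 12 fell and 0 rose, with a median log2 fold change of -1.44, and their summed level dropped from 2960.5 and 2972 CPM at 12 h to 1093 and 1077 CPM at 24 h. Nanog (chr6:122707489-122714633 in GRCm38), a homeobox factor at the centre of the network, stood at 352 and 365 CPM at 12 h and at 61.3 and 58.7 CPM at 24 h. Its libraries at the 2 times did not overlap, and the log2 fold change was -2.58 ± 0.05 (adjusted p = 5.1e-81), the smallest adjusted p of any gene in the step. Tbx3, a T-box factor, went from 161 and 165 CPM to 27.3 and 26.3 CPM (-2.61 ± 0.07). Prdm14, a repressor of FGF signalling and of DNA methylation, had the steepest fall of the list, from 28.2 and 28.5 CPM to 3.76 and 3.57 CPM (-2.95 ± 0.15).

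Tfcp2l1, a factor kept active by LIF, fell from 437 and 446 CPM to 108 and 111 CPM (-2.01 ± 0.04), and Esrrb, an orphan nuclear receptor, from 631 and 654 CPM to 242 and 239 CPM (-1.42 ± 0.04). Nr5a2, another orphan nuclear receptor, changed by -2.44, Tcl1, a cofactor of Akt, by -2.45, Nr0b1 by -1.13 and Zfp42 (Rex1), the usual reporter of exit, by -0.76. Each of these genes had both 24 h libraries below both 12 h libraries. The 2 members that did not pass the test were Dppa3 (-0.44, adjusted p = 0.18) and Gbx2 (0.08, adjusted p = 0.52). From 2i/LIF the median of the list was -1.12, with 13 members lower and 1 higher. Nanog changed by -1.49 there, and the difference between the steps, -1.10 ± 0.07, passed the test (adjusted p = 3.6e-29), as it did for 10 of the 14 members, all more negative from serum/LIF+2i. Of these, 9 kept the call with each of the 8 libraries of both steps left out in turn, and Gbx2 (difference -0.37) lost it in 7 of the 8 fits (adjusted p up to 0.22). The naive genes had a median of -0.56 in the preceding step (0 to 12 h) and -2.04 in the following one (24 to 40 h), which share the 12 h or the 24 h libraries with the step described.

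The core factors that naive and primed cells share moved much less. Of 14, 7 fell and 0 rose, with a median of -0.10. Sall4, a zinc finger partner of Oct4, went from 429 and 459 CPM to 323 and 293 CPM (-0.53 ± 0.04, adjusted p = 1.7e-21), and Sox2 from 413 and 414 CPM to 297 and 281 CPM (-0.52 ± 0.04). Both fell by amounts far smaller than Nanog. L1td1, an RNA-binding protein, changed by -0.40 and Pou5f1 by -0.17 (adjusted p = 1.1e-05). Utf1, Lin28a, Dppa2 and Dppa4 did not pass the test, although Lin28a did with library size as the only scaling (0.10, adjusted p = 0.020). Sox2 lies within its non-coding host Sox2ot, and no source used here gives the strand setting of the counts, so reads of overlapping genes could not be told apart.

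Formative genes rose over the same hours. Of 16 formative and primed genes 14 rose and 1 fell, with a median of 0.98, and the summed level went from 1560.1 and 1560.4 CPM at 12 h to 3354 and 3329 CPM at 24 h. Dnmt3a (chr12:3801559-3914443), a de novo DNA methyltransferase, went from 544 and 535 CPM to 1225 and 1208 CPM (1.17 ± 0.04, adjusted p = 9.7e-59). Its partner Dnmt3b went from 334 and 345 CPM to 999.6 and 998 CPM (1.55 ± 0.04). Both enzymes at least doubled in every comparison of a 24 h with a 12 h library.

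Otx2, a homeobox factor that redirects Oct4 to new enhancers, rose from 38.7 and 36.7 CPM to 94.6 and 90.8 CPM (1.30 ± 0.08). Pou3f1 (Oct6), a POU factor of the formative state, changed by 2.20, Foxp1, a forkhead factor, by 1.42, Lin28b, which blocks maturation of let-7, by 1.25, Sall2 by 0.94 and Grhl2, a factor of epithelial enhancers, by 0.78. Fgf5, a classic epiblast marker, was still scarce, with 2.03 and 1.92 CPM at 12 h and 7.08 and 5.40 CPM at 24 h (1.65 ± 0.30). Etv1, an ETS factor, was the member that fell, from 54.6 and 58.5 CPM to 30.3 and 28.2 CPM (-0.96 ± 0.09), and Tead2 did not pass the test (0.10, adjusted p = 0.082), although it did with library size as the only scaling (0.13, adjusted p = 0.017), with genes of a mean of at least 5 CPM (0.12, adjusted p = 0.027) and with only the 4 libraries in the fit (0.10, adjusted p = 0.049).

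From 2i/LIF, 15 of the 16 rose, with a median of 1.30, and the difference between the steps passed the test for 8 members, 6 of them more negative from serum/LIF+2i. Only 3 of the 8, all more negative, kept this call with each of the 8 libraries of both steps left out in turn. Among those that did not, Etv1 (difference -0.36) lost it in 7 of these 8 fits (adjusted p up to 0.21) and also with DESeq2 (0.27), Pou3f1 (-0.73) without replicate 2 of 12 h from serum/LIF+2i (0.16) and without replicate 1 of either time from 2i/LIF (0.16 and 0.059). Foxp1 (0.30) lost it without the same 3 libraries (0.055 to 0.067), and Sall2 (-0.49) without replicate 1 of 12 h from 2i/LIF (0.14). Otx2 rose by 2.03 from 2i/LIF (difference -0.73 ± 0.13, adjusted p = 2.9e-06) and Grhl2 by 1.77 (difference -0.99 ± 0.13, adjusted p = 7.6e-10). Dnmt3a changed less from serum/LIF+2i, with a difference of -0.34. Otx2 stood at 11.3 and 9.29 CPM at 40 h, below both of its times in the step. The list had a median of 2.54 in the preceding step and 0.24 in the following one.

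**Figure D2:**
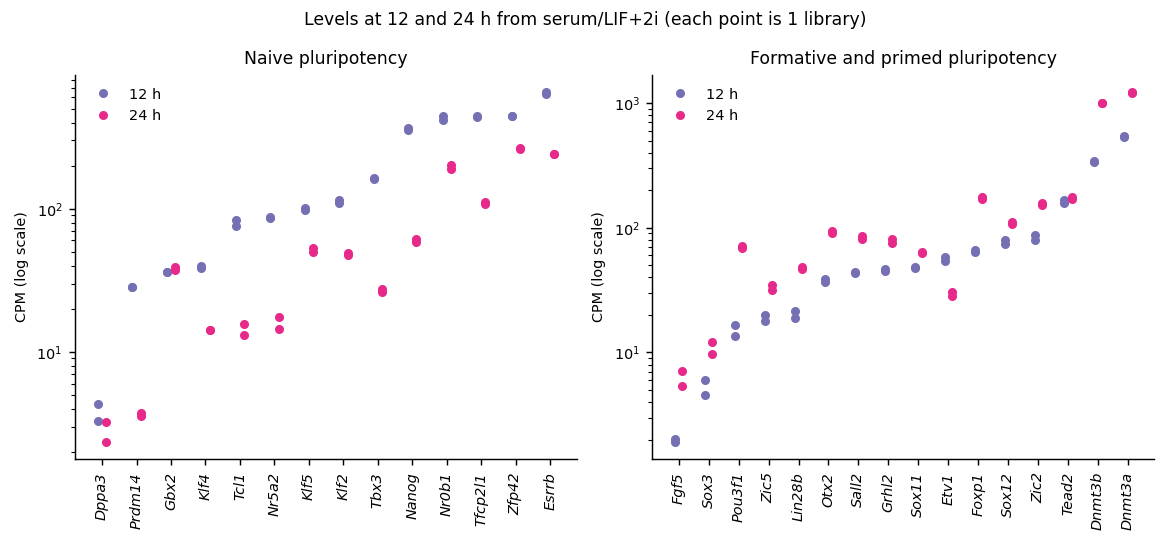
CPM on a log scale in each of the 2 libraries at 12 h (purple) and at 24 h (pink) from serum/LIF+2i, for 14 naive genes (left) and 16 formative and primed genes (right), ordered by the 12 h mean. Nanog drops from 352 and 365 CPM to 61.3 and 58.7 CPM while Dnmt3a and Dnmt3b climb, and the replicate points nearly coincide for most genes.

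The ER chaperone list, whose members include Herpud1, which is not itself a chaperone, rose as a block. All 16 listed genes rose and 0 fell, with a median log2 fold change of 0.76 beside 0.01 over all genes, and their summed level went from 4237 and 4237 CPM at 12 h to 6274 and 6413 CPM at 24 h. Hspa5 (chr2:34772090-34776529), the ER Hsp70 called BiP, which binds unfolded chains and holds the stress sensors inactive, stood at 661 and 655 CPM at 12 h and at 1179 and 1218 CPM at 24 h. Both 24 h libraries lay above both 12 h libraries, and the log2 fold change was 0.87 ± 0.04 (adjusted p = 7.9e-45). Herpud1 (chr8:94386429-94395371), a membrane protein that helps to pass misfolded proteins to the proteasome, had the largest rise of the list, from 31.6 and 28.8 CPM to 119.8 and 122 CPM (2.00 ± 0.07, adjusted p = 3.4e-50).

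Folding factors of several kinds took part. Hsp90b1, the ER Hsp90 called Grp94, went from 732 and 741 CPM to 1124 and 1168 CPM (0.64 ± 0.03), and Hyou1, which exchanges nucleotide on BiP, from 232 and 250.1 CPM to 402 and 419.8 CPM (0.77 ± 0.04). Manf, a secreted protein that stabilises BiP complexes, went from 94.6 and 93.8 CPM to 181 and 196 CPM (1.00 ± 0.05). Each of these changes was many times its SE. The J-domain co-chaperones Dnajc3, Dnajb9 and Dnajb11 changed by 1.10, 0.80 and 0.46, and Sdf2l1, which works with them, by 0.95. Among the disulfide isomerases, Pdia4 and Pdia6 changed by 0.58 and 0.45 and Creld2 by 0.76. The lectin chaperones calreticulin (Calr) and calnexin (Canx), which hold glycoproteins for folding, changed by 0.40 and 0.34. The smallest change was that of the isomerase Pdia3, from 593 and 563 CPM to 634 and 627 CPM (0.13 ± 0.04, adjusted p = 0.0016), a call that was lost without replicate 2 of 12 h (0.09, adjusted p = 0.11). Xbp1, the factor made active when Ire1 splices its mRNA, rose in total mRNA from 96.1 and 106 CPM to 177 and 163 CPM (0.75 ± 0.05), and gene counts do not show splicing. Hspa5, Pdia3 and Pdia6 overlap a neighbouring counted gene.

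The rise was not seen from 2i/LIF. There the same 16 genes had a median of -0.01, with 2 higher and 2 lower, and the difference between the steps passed the test for all 16, each more positive from serum/LIF+2i, also with each of the 8 libraries left out in turn. Hspa5 was at 759 and 756 CPM at 12 h and 744 and 781 CPM at 24 h from 2i/LIF (difference 0.86 ± 0.05, adjusted p = 2.9e-29), and Herpud1 at 29.2 and 32.0 CPM and 29.7 and 31.8 CPM (difference 2.00 ± 0.13, adjusted p = 6.1e-27). At 12 h the cells from both media thus carried similar Herpud1 levels, and the 24 h libraries from serum/LIF+2i stood apart. Xbp1 also rose from 2i/LIF, by 0.34 (difference 0.41), whereas Calr changed by -0.15 there.

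The neighbouring steps frame this rise. From serum/LIF+2i the list had a median of -0.05 from 0 to 12 h and -0.43 from 24 to 40 h. Hspa5 was at 704 and 647 CPM at 0 h, changed by -0.04 to 12 h (adjusted p = 0.39) and by -0.45 from 24 to 40 h (adjusted p = 2.4e-22), and stood at 859 and 899 CPM at 40 h. Herpud1 was at 19.5 and 17.6 CPM at 0 h and at 77.8 and 75.9 CPM at 40 h, so the 24 h libraries held its highest level of the 4 times.

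**Figure D3:**
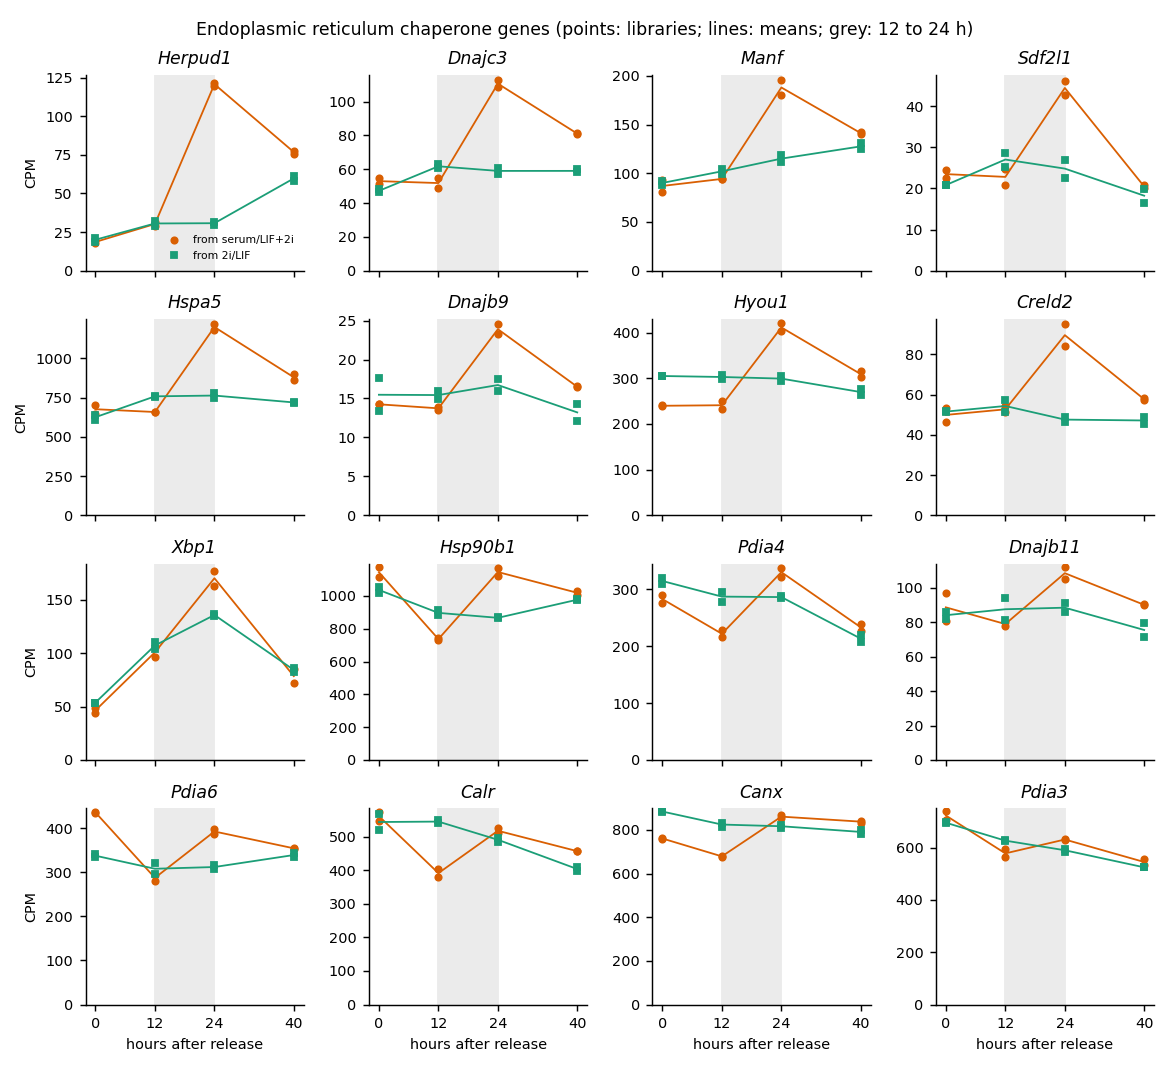
CPM of the 16 genes of the ER chaperone list at 0, 12, 24 and 40 h from serum/LIF+2i (orange circles) and from 2i/LIF (green squares); points are single libraries, lines join the means of 2 and the grey band marks 12 to 24 h. In Herpud1 and Hspa5 the orange line climbs across the band to 24 h and comes down by 40 h, while the green line stays near its 12 h level across the band.

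Genes that clear unfolded protein from the ER were examined in a list written after the first look at the values. Like the lists above, which were written with earlier results of these data known, it is described only. Of 24 genes for ER-associated degradation and translocation, 14 rose and 0 fell, with a median of 0.24, against -0.03 from 2i/LIF with 1 higher and 3 lower. Sel1l, the partner of the ubiquitin ligase Syvn1 (Hrd1), went from 64.1 and 56.4 CPM to 113 and 107 CPM (0.88 ± 0.06), and Syvn1 from 41.1 and 41.0 CPM to 64.9 and 68.8 CPM (0.71 ± 0.08). Derl3, a channel component of the same machinery, rose from 4.33 and 2.77 CPM to 16.5 and 17.9 CPM (2.31 ± 0.20, adjusted p = 1.2e-19). Edem1, which selects glycoproteins for degradation, changed by 0.69, and Ssr3, a subunit of the complex at the translocon, by 0.43. Syvn1 overlaps Mrpl49.

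The sensors moved less uniformly. Of 14 genes for ER stress sensors and their factors, also listed after the first look, 5 rose and 4 fell, with a median of 0.05. Over all genes tested 24.2% rose and 24.2% fell. Atf6, whose cleaved form activates chaperone genes, went from 76.6 and 75.4 CPM to 111 and 118 CPM (0.59 ± 0.06, adjusted p = 1.8e-13), and Ern1, which encodes Ire1, changed by 0.58 (adjusted p = 0.0017). The related membrane-bound factors went opposite ways, with Creb3l1 at 1.29 and Creb3l2 at -1.04. Mbtps1, the protease that cleaves Atf6 first, fell by 0.25 on the log2 scale, and Eif2ak1, an eIF2 kinase that senses haem, fell by 0.27.

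Promoters of both stress lists were searched for the elements that their factors are known to read, because members of each list moved together. The ER stress element, CCAAT and CCACG with 9 bases between them, bound by NF-Y with Atf6 or Xbp1, was added after the first look at the values. RefSeq promoters of GRCm38.p6 were available for 14 of the 16 genes of the ER chaperone list. The 250 bases before each start were searched on both strands. The element was held by 7 of the 14, against 0.192% of 10940 tested genes with a promoter and 0.113% of 32851 promoters. Element and list were both taken from the same known pathway. This share is thus a description and not a test. Windows of the 7 genes are shown because they rose in the step. They give the element in capitals, on the strand of the gene, as CCAAT to CCACG or in the reverse orientation. They lie at chr2:34772005-34772063 (plus strand) for Hspa5, chr10:86705513-86705676 (minus) for Hsp90b1, which has 2 copies, chr14:118937807-118937865 (plus) for Dnajc3, chr12:17266471-17266529 (plus) for Pdia6, chr11:50325780-50325838 (minus) for Canx, chr8:84847055-84847113 (minus) for Calr and chr15:88819500-88819558 (plus) for Creld2.
Hspa5: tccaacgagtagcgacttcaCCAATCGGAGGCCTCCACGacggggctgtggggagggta
Hsp90b1: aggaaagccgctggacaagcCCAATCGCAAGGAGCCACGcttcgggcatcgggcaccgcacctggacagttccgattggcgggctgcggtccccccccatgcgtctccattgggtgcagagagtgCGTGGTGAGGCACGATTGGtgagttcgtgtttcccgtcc
Dnajc3: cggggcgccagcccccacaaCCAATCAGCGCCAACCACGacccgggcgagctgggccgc
Pdia6: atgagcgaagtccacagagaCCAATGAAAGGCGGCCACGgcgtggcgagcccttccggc
Canx: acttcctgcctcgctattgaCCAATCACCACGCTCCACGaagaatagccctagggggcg
Calr: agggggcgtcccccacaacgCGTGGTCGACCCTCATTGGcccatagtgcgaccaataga
Creld2: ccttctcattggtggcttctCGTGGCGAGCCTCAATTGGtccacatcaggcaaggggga

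The first base of the element lay 65 bases before the start in Hspa5, 98 in Pdia6, 105 in Dnajc3, 126 in Creld2, 145 in Canx and 162 in Calr. Of the tested genes with a promoter, 21 held the element. Among them 15 rose (71.4%) and 2 fell (9.52%), with a median of 0.64. Over all genes tested 24.2% rose, 24.2% fell and 17.1% passed the test for a difference between the steps. Of the 14 holders outside the chaperone list, 8 rose (57.1%) and 2 fell (14.3%). Those that rose included Derl3 and Syvn1, described above, Ero1lb, an ER oxidase, and Xlr3a and Xlr3c, near-identical copies whose counts are uncertain. From 2i/LIF, 3 of the 21 rose and 4 fell, with a median of -0.07, and the difference between the steps passed the test for 11, all more positive from serum/LIF+2i, of which 9 kept the call with each of the 8 libraries left out in turn. A match is a string of letters in a promoter and does not show binding.

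The core TTGCATCA of the element bound by Atf4 with C/EBP factors was searched in the same way. It was found in 6 of the 26 amino acid response genes with a promoter, against 0.658% of the tested genes with one and 0.791% of all promoters. Core and list were likewise taken from the same known pathway, so this share is a description and not a test. The 6 windows are shown because these genes belong to the list described next, in capitals on either orientation. They lie at chr1:191183416-191183463 (minus) for Atf3, chr2:119351029-119351076 (plus) for Chac1, chr7:126625553-126625600 (minus) for Nupr1, chr19:27216800-27216847 (plus) for Vldlr, chr7:45615602-45615649 (minus) for Fgf21 and chr11:120643824-120643871 (minus) for Pycr1.
Atf3: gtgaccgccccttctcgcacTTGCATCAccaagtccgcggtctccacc
Chac1: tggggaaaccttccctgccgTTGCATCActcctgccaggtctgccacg
Nupr1: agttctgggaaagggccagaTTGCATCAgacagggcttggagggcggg
Vldlr: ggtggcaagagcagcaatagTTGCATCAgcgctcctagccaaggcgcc
Fgf21: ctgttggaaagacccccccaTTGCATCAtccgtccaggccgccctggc
Pycr1: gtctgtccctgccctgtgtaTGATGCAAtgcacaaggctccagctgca

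In the ER chaperone list only Herpud1 held this core (1 of 14), and the ER stress element was in 0 of the 26 amino acid response promoters. Of the tested genes with a promoter 72 held TTGCATCA, of which 34 rose (47.2%) and 10 fell (13.9%), with a median of 0.31. Over all genes tested 24.2% rose, 24.2% fell and 17.1% passed the test for a difference between the steps. Of the 66 outside the amino acid list, 28 rose (42.4%) and 10 fell (15.2%). Slc7a11, Serpinf1 and Herpud1 were among those that rose, and those that fell included Sfn (-1.85), Arid5b (-0.77) and Got1 (-0.40), a cytosolic aspartate aminotransferase. From 2i/LIF, 17 of the 72 rose and 10 fell, with a median of 0.05. The difference between the steps passed the test for 20, 16 more positive from serum/LIF+2i and 4 more negative, and 14 of these calls were kept with each of the 8 libraries left out in turn, 12 of them positive.

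Amino acid response genes rose almost without exception. Of 30, 29 rose and 1 fell, with a median of 0.83, and the summed level went from 4541 and 4546 CPM at 12 h to 5901 and 6059 CPM at 24 h. Atf4, the factor that drives the response, went from 317 and 320.1 CPM to 479.8 and 488 CPM (0.60 ± 0.04, adjusted p = 1.1e-29), although its control is mostly translational. Trib3, a pseudokinase that is a target and inhibitor of Atf4, went from 63.9 and 63.4 CPM to 189 and 184 CPM (1.55 ± 0.06, adjusted p = 6.3e-51), and Chac1, which degrades glutathione, from 28.0 and 26.6 CPM to 106 and 105 CPM (1.95 ± 0.08). For these genes both 24 h libraries lay above both 12 h libraries.

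Factors that act with or after Atf4 showed some of the largest changes of the step. Atf3 (chr1:191170296-191183333), a stress-induced repressor and activator, was near the limit of detection at 12 h, with 1.49 and 0.745 CPM, and reached 18.2 and 18.2 CPM at 24 h (4.07 ± 0.25, adjusted p = 1.7e-30). Ddit3, the C/EBP-related factor Chop, went from 11.8 and 13.5 CPM to 58.1 and 58.2 CPM (2.19 ± 0.12), and Nupr1, a small chromatin protein induced by stress, from 20 and 20 CPM to 60.2 and 60.2 CPM (1.59 ± 0.10). Cebpb and Cebpg, partners of Atf4, changed by 2.66 and 0.83. Ppp1r15a (Gadd34), which returns eIF2 to its active form, changed by 1.03, and Ddit4 and Sesn2, inhibitors of mTORC1, by 1.52 and 0.37.

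The list also holds metabolic enzymes. Mthfd2, the mitochondrial folate enzyme, went from 156 and 166 CPM to 318 and 316 CPM (0.98 ± 0.04), and Gpt2, which makes alanine, from 114 and 123 CPM to 206 and 218 CPM (0.84 ± 0.05). Aldh1l2, another folate enzyme, changed by 2.33, and Pck2, the mitochondrial PEP carboxykinase, by 0.79. Stc2, a secreted glycoprotein, went from 8.79 and 8.52 CPM to 41.3 and 44.5 CPM (2.31 ± 0.12), and Vldlr, a lipoprotein receptor, from 4.73 and 3.94 CPM to 24.1 and 25.8 CPM (2.54 ± 0.16). The hormone Fgf21 had 2 and 2 counts at 12 h and 26 and 32 counts at 24 h, 12.7-fold higher (95% interval of the counts 4.78 to 49.0), an interval that covers counting error only. The smallest rise of the list was that of Eif4ebp1, by 0.10, a call that was lost without either 12 h library (adjusted p of 0.070 and 0.061) and without replicate 2 of 24 h (0.24).

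Asns, asparagine synthetase and a standard target of Atf4, was the member that fell. It stood at 819 and 828 CPM at 12 h and at 549.9 and 586 CPM at 24 h (-0.54 ± 0.04, adjusted p = 2.4e-25), after 1592 and 1634 CPM at 0 h. It fell from 2i/LIF too, by 0.46 on the log2 scale, and the difference between the steps, -0.08 ± 0.05, did not pass the test (adjusted p = 0.36). Asns thus moved against its list in both media.

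From 2i/LIF the list had a median of 0.16, with 10 higher and 3 lower, and the difference passed the test for 22 members, all more positive from serum/LIF+2i, and 19 of them kept the call with each of the 8 libraries left out in turn. Atf4 was at 349 and 334 CPM and 343 and 357 CPM there (difference 0.57 ± 0.05, adjusted p = 6.7e-16). The differences were 1.59 ± 0.09 for Trib3 (adjusted p = 2.9e-29), 1.38 ± 0.14 for Chac1 (adjusted p = 5.0e-15) and 2.39 ± 0.23 for Ddit3 (adjusted p = 6.5e-13). In the preceding and following steps from serum/LIF+2i the medians were 0.31 and 0.21. Reads of Ddit3 (beside Mars and Mbd6) and Ppp1r15a (beside Tulp2) could include those of an overlapping gene.

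**Figure D4:**
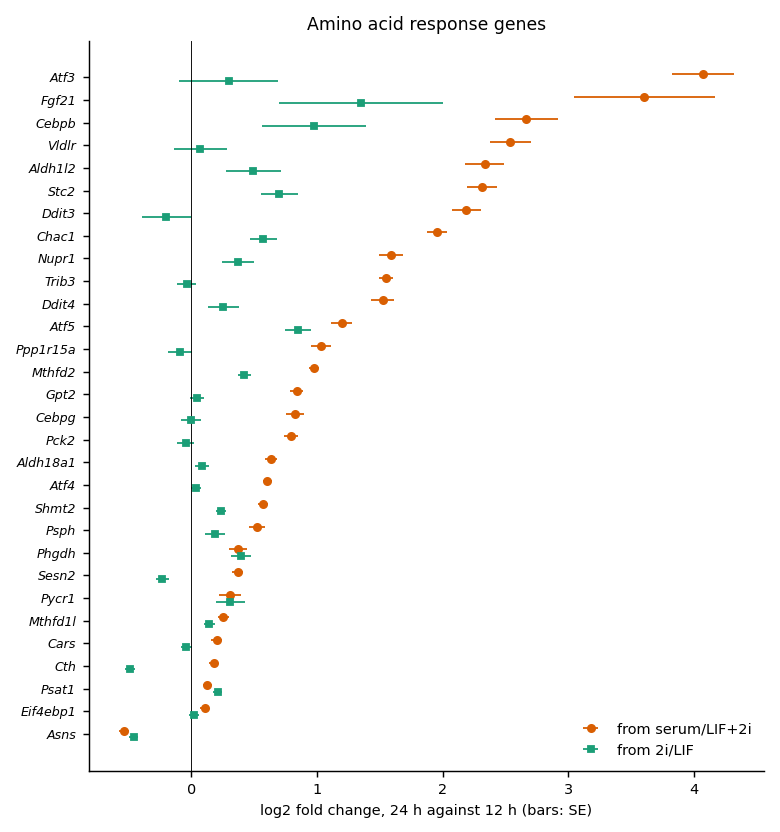
Log2 fold change from 12 to 24 h of 30 amino acid response genes from serum/LIF+2i (orange circles) and from 2i/LIF (green squares), with bars for the SE. All orange points but that of Asns lie right of 0, up to 4.07 for Atf3, while the green points scatter around a median of 0.16.

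Amino acid transporters of the plasma membrane changed in both directions. Of 27 tested, 15 rose and 5 fell, with a median of 0.44 (0.43 with 1 gene that had 0 counts set at its bound). Slc38a2 (Snat2), a sodium-coupled carrier of small neutral amino acids, was the most abundant riser named, from 588 and 589.9 CPM to 1078 and 1049 CPM (0.85 ± 0.03, adjusted p = 2.1e-45). Slc3a2 (4F2hc), the heavy chain that several exchangers need, went from 296 and 313 CPM to 554 and 544 CPM (0.85 ± 0.04). Slc7a11 (xCT), its light chain for cystine uptake, went from 6.35 and 5.64 CPM to 39.2 and 41.4 CPM (2.75 ± 0.14), the largest rise of the transporters.

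Slc1a4, a carrier of alanine and serine, changed by 0.93, Slc6a9, a glycine carrier, by 1.61, and Slc38a1 by 0.46. The cationic amino acid carrier Slc7a1 went from 253 and 271 CPM to 387 and 392 CPM (0.57 ± 0.06) and fell from 2i/LIF, by 0.33 on the log2 scale. The leucine exchanger Slc7a5 and the glutamine carrier Slc1a5 changed by 0.32 and 0.44. The taurine carrier Slc6a6 fell from 317 and 321 CPM to 158 and 151 CPM (-1.05 ± 0.04) and Slc6a15, a carrier of branched-chain amino acids and proline, from 38.7 and 33.1 CPM to 11.3 and 12.3 CPM (-1.59 ± 0.12). The lysosomal and plasma membrane carrier Slc36a1 changed by -0.88, Slc7a2, a cationic carrier, by -1.24 and the glutamate carrier Slc1a1, scarce at 1.62 and 2.66 CPM at 12 h, by -1.27.

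The list had a median of 0.26 from 2i/LIF, with 16 higher and 5 lower. The difference between the steps passed the test for 10 members, 7 more positive from serum/LIF+2i, beside 17.1% of all genes tested. Of these 10 calls, 8 were kept with each of the 8 libraries left out in turn, and that of Slc6a15 (-0.73) was lost without replicate 1 of 24 h from 2i/LIF (adjusted p = 0.11). It was 0.90 ± 0.09 for Slc7a1 (adjusted p = 8.8e-08), 1.60 ± 0.26 for Slc7a11 (adjusted p = 3.5e-07) and 0.52 ± 0.06 for Slc3a2 (adjusted p = 2.6e-13). Slc6a9 overlaps Ccdc24.

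Aminoacyl-tRNA synthetases, which charge tRNAs and include further Atf4 targets, rose in 10 of 20 cases and fell in 3, with a median of 0.11. These counts stand beside 24.2% of all genes tested that rose and 24.2% that fell. Lars, the leucine enzyme, went from 435 and 450.2 CPM to 641 and 639.8 CPM (0.53 ± 0.04), Sars, the serine enzyme, from 340.2 and 331 CPM to 459 and 475 CPM (0.48 ± 0.04) and Eprs, for glutamate and proline, from 777 and 792 CPM to 986 and 1023 CPM (0.36 ± 0.03). Qars, the glutamine enzyme, went the other way, from 309 and 320.2 CPM to 229.8 and 225 CPM (-0.47 ± 0.04, adjusted p = 8.4e-20). From 2i/LIF, 6 rose and 1 fell.

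Heat shock genes, listed after the first look, did not follow the ER chaperones. Of 13 genes for chaperones of the cytosol and nucleus, 1 rose and 8 fell, with a median of -0.17, against -0.02 from 2i/LIF. These counts, and those of the mitochondrial list below, stand beside 24.2% of all genes tested that rose and 24.2% that fell. Hspa8, the constitutive Hsp70, went from 822 and 828 CPM to 564 and 559.8 CPM (-0.55 ± 0.04), and Hspb1, a small heat shock protein, from 213 and 222 CPM to 114 and 114 CPM (-0.93 ± 0.05). Hsp90ab1, the abundant cytosolic Hsp90, changed by -0.17. Hspa8 hosts small nucleolar RNAs that share its reads. Among 10 mitochondrial chaperones and proteases 3 rose and 5 fell (median -0.04), with Hspa9, the mitochondrial Hsp70 that also supports import, up from 1176 and 1114 CPM to 1532 and 1559 CPM (0.43 ± 0.03), Trap1 at 0.23 and Lonp1 at 0.20. Those that fell were Hspe1 (-0.34), Hspd1 (-0.16), Yme1l1 (-0.26), Clpx (-0.25) and 1 gene named below.

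Signalling genes were taken by pathway, from ligand to target. Their counts, and those of the lists after them, stand beside 24.2% of all genes tested that rose and 24.2% that fell. Of 11 FGF ligands and receptors 5 rose and 1 fell. Fgf4, the ligand that drives ES cells toward differentiation, was at 365 and 357 CPM and 394 and 377 CPM (0.10 ± 0.04, adjusted p = 0.035), and this call was lost without either 12 h library (adjusted p of 0.054 and 0.21) and without replicate 1 of 24 h (0.31). Fgf15 rose from 4.73 and 5.11 CPM to 14.7 and 13.0 CPM (1.48 ± 0.19), the receptor Fgfr2 from 3.38 and 2.87 CPM to 14.0 and 12.0 CPM (2.06 ± 0.21), and Fgf17 fell from 5.41 and 6.60 CPM to 1.99 and 1.73 CPM (-1.70 ± 0.28).

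Targets and feedback inhibitors of ERK split, with 5 of 14 higher and 4 lower (median -0.01). The ETS factor Etv4 fell from 205 and 204 CPM to 119.6 and 127 CPM (-0.73 ± 0.05) and the Ras pathway inhibitor Spry4 from 109.8 and 111 CPM to 74.7 and 80.9 CPM (-0.51 ± 0.06). The phosphatase Dusp4 rose from 30.4 and 26.5 CPM to 47.6 and 46.3 CPM (0.73 ± 0.09) and Spred3, another inhibitor of the pathway, from 7.84 and 9.05 CPM to 22.6 and 20 CPM (1.32 ± 0.14), where reads of the overlapping Ggn could enter. The other risers were Egr1 (1.92), Dusp5, taken up again below, and Spry2 (0.28), and Phlda1 (-0.59) and Etv5 (-0.22) also fell. Dusp6, a direct readout of ERK activity, changed by 0.10 and did not pass the test (adjusted p = 0.19). From 2i/LIF the median was 0.12. The difference passed the test for 5 members, all more negative from serum/LIF+2i, beside 17.1% of all genes tested. Of the 5, 3 kept the call with each of the 8 libraries left out in turn.

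Wnt targets, held high by CHIR99021 before release, gave 3 rises and 6 falls among 13 genes. The median was 0.00, the value of 1 member with 0 counts in all 4 libraries of the step, against -0.59 from 2i/LIF. The difference between the steps passed the test for 3 of the 13, 1 more positive from serum/LIF+2i and 2 more negative. Among all genes tested it passed for 17.1%, so 3 of 13 is near the general share. Lef1, a TCF factor that is itself a target, rose from 7.43 and 7.66 CPM to 57.5 and 56.1 CPM (2.91 ± 0.11, adjusted p = 2.0e-47). Notum, a secreted Wnt deacylase, fell from 83.3 and 81.6 CPM to 41.3 and 37.4 CPM (-1.07 ± 0.07), and Axin2, the feedback scaffold, from 22.4 and 21.0 CPM to 11.5 and 10.8 CPM (-0.96 ± 0.12). Ccnd2, cyclin D2, fell from 43.9 and 41.3 CPM to 19.0 and 14.6 CPM (-1.35 ± 0.11) but changed by 0.02 from 2i/LIF (difference -1.36 ± 0.16, adjusted p = 8.4e-11).

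Of 10 LIF and Stat3 targets 1 rose and 5 fell, with a median of -0.25 against -0.64 from 2i/LIF. Pim1, a kinase gene induced by Stat3, rose from 76.4 and 81.0 CPM to 96.2 and 101 CPM (0.32 ± 0.06), and Bcl3, a nuclear IkB protein, fell from 5.14 and 5.96 CPM to 2.32 and 2.55 CPM (-1.19 ± 0.26). The kinase gene Jak1 fell by a small amount (-0.23). Stat3 itself and its feedback inhibitor Socs3 did not pass the test, although Socs3 did without replicate 1 of 24 h (-1.43, adjusted p = 0.011).

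BMP pathway genes showed some of the deepest falls. Of 12, 3 rose and 7 fell, with a median of -0.65. Bmp4, the ligand, went from 44.2 and 37.9 CPM to 2.10 and 3.16 CPM (-3.94 ± 0.17, adjusted p = 3.9e-44). The Id genes, direct BMP targets that block helix-loop-helix factors, fell together: Id1 from 17.4 and 16.9 CPM to 1.33 and 2.14 CPM (-3.28 ± 0.22), Id3 from 39.2 and 45.2 CPM to 12.3 and 12.3 CPM (-1.79 ± 0.12) and Id4 from 5.41 and 5.0 CPM to 0.553 and 0.815 CPM (-2.88 ± 0.37), with Id2 at -1.50. At 24 h both libraries of each were below both 12 h libraries. The median was -0.64 from 2i/LIF, where 8 fell, and Id3 fell less there (difference -1.15 ± 0.18, adjusted p = 7.6e-07).

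In the Nodal pathway 4 of 14 genes rose and 7 fell (median -0.16). The ligand Nodal changed by -0.51, its inhibitors Lefty1 and Lefty2 by 0.41 and -0.53, and Pcsk6, a protease that matures the ligand, went from 81.2 and 74.5 CPM to 26.7 and 33.4 CPM (-1.36 ± 0.08). The inhibitory Smad7 fell from 82.4 and 80.6 CPM to 34.3 and 36.6 CPM (-1.20 ± 0.08), while Skil (SnoN), a repressor of Smad targets, rose from 99.1 and 96.5 CPM to 187 and 183 CPM (0.92 ± 0.05). Foxh1, the Smad partner, changed by 0.60, with the overlapping Kifc2 counted beside it.

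In the Notch pathway 4 of 11 genes rose and 4 fell (median -0.24). The ligand Dll3 changed by 1.57 and the receptor Notch3 by 0.31. A further ligand gene, Dll1, which was listed with the primitive streak, rose from 3.38 and 1.92 CPM to 26.3 and 25.0 CPM (3.31 ± 0.18). Rbpj, the DNA-binding factor of the pathway, fell from 328 and 329 CPM to 192 and 184 CPM (-0.80 ± 0.04), and its target Hes1 fell from 19.1 and 19.7 CPM to 4.31 and 5.81 CPM (-1.93 ± 0.17). The receptor Notch1 changed by -0.48. Of 11 retinoic acid response genes 8 rose and 1 fell. Crabp2, which carries retinoic acid to its receptors, rose from 6.49 and 6.81 CPM to 16.6 and 15.3 CPM (1.25 ± 0.16), the receptors Rarg and Rara changed by 0.29 and 0.37, and Hoxb1 went from 0 and 0 to 8 and 6 counts, at least 2.06-fold higher with 3 counts per library standing for 0. Dhrs3, which lowers retinaldehyde, fell from 8.24 and 7.77 CPM to 1.99 and 1.73 CPM (-2.10 ± 0.27), with Vps13d overlapping it.

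Sugar metabolism separated the media. Of 23 glycolysis genes 7 rose and 9 fell from serum/LIF+2i (median -0.04), whereas 13 rose and 4 fell from 2i/LIF (median 0.39). The difference passed the test for 16 genes, all more negative from serum/LIF+2i, and 12 of them kept the call with each of the 8 libraries left out in turn. Ldha, lactate dehydrogenase A, fell from 786 and 821 CPM to 645 and 648 CPM (-0.31 ± 0.04) and rose from 330.0 and 328 CPM to 512 and 520.5 CPM from 2i/LIF (difference -0.96 ± 0.05, adjusted p = 1.7e-31). At 24 h Ldha was thus nearer between the media than at 12 h.

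Transport of sugar and lactate went different ways. Slc2a3 (Glut3), a high-affinity glucose carrier, fell from 777 and 781 CPM to 430.5 and 432 CPM (-0.85 ± 0.03), and Slc2a1 (Glut1) from 157 and 172 CPM to 129 and 126 CPM (-0.37 ± 0.05) while it changed by 0.39 from 2i/LIF. Pfkp, a phosphofructokinase, fell from 468 and 509 CPM to 278 and 271 CPM (-0.83 ± 0.04). Slc16a3 (Mct4), which exports lactate, rose from 52.8 and 47.9 CPM to 175 and 168 CPM (1.77 ± 0.07), less than from 2i/LIF (2.94, difference -1.17 ± 0.12). Pdk1, which limits entry of pyruvate into the mitochondrion, rose from 110.0 and 119.7 CPM to 213 and 203 CPM (0.85 ± 0.05). Slc16a3 overlaps Csnk1d and Pfkp overlaps Pitrm1.

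Subunits of oxidative phosphorylation fell in 23 of 30 cases by small amounts, with 1 higher and a median of -0.19, against -0.08 from 2i/LIF with 10 lower. Cox5a of complex IV had the clearest fall, from 296 and 292 CPM to 189 and 184 CPM (-0.66 ± 0.04). Further falls were those of Ndufa4 (-0.42), Atp5o of the ATP synthase (-0.39) and Uqcrc2 of complex III (-0.30). The difference between the steps passed the test for 6 of the 30, each more negative from serum/LIF+2i, but only 1 of the 6 kept this call with each of the 8 libraries left out in turn. That of Atp5o (-0.18) was lost in all 8 fits (adjusted p from 0.054 to 0.20) and that of Cox5a (-0.26) without replicate 1 of 24 h from 2i/LIF (0.093). Over all genes tested the difference passed for 17.1%, with 9.87% more negative from serum/LIF+2i, so 6 of 30 is near the general share. Of the 30 genes, 25 are in the shortest of the 4 classes by length, where 41.4% of calls were higher, and the part of length in these changes was not tested.

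Of 26 cholesterol synthesis genes 14 rose and 2 fell (median 0.16, and 0.17 from 2i/LIF). Lss, which closes the sterol rings, went from 150.2 and 147 CPM to 205 and 216 CPM (0.50 ± 0.05), and Cyp51, which demethylates lanosterol, changed by 0.34. Ebp, a sterol isomerase, changed by -0.45 and Fdft1, squalene synthase, by -0.17. Lss overlaps another counted gene. The sterol element TCACNCCAC was in 1 of 18 promoters of the list, that of Hmgcs1, against 1.30% of the tested genes with a promoter.

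Lysosome genes fell more often than they rose, 13 against 6 of 32, with a median of -0.05, against 20 lower and 3 higher from 2i/LIF (median -0.29). The difference passed the test for 12, beside 17.1% of all genes tested. Of the 12, 11 were more positive from serum/LIF+2i, and 7 kept the call with each of the 8 libraries left out in turn. The thioesterase Ppt1 fell from 62.6 and 60.5 CPM to 43.8 and 41.3 CPM (-0.53 ± 0.08), and the protease Ctsb changed by -0.41. Mcoln1, a calcium channel of the lysosome, rose from 17.6 and 19.5 CPM to 30.9 and 31.5 CPM (0.74 ± 0.11), as did Galc (0.70) and Ctsl (0.27). The E-box CACGTG was in 10 of 26 lysosome promoters, against 9.95% of tested genes with a promoter. Ppt1 and Ctsb overlap neighbouring genes.

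Macropinocytosis, the bulk uptake of fluid that can feed cells protein, is run by actin and membrane regulators. Of 28 such genes 6 rose and 11 fell (median -0.07, and -0.02 from 2i/LIF). Ehd1, an endosomal recycling ATPase, fell from 184 and 189 CPM to 108 and 112 CPM (-0.76 ± 0.05). The kinase Pak1, which acts on actin at membrane ruffles, rose from 66.8 and 64.2 CPM to 106 and 98.1 CPM (0.64 ± 0.06).

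Hypoxia response genes, listed after the first look, gave 8 rises and 4 falls among 20 (median 0.02). Ak4, a mitochondrial adenylate kinase, fell from 104 and 110.3 CPM to 25.7 and 27.6 CPM (-2.01 ± 0.07), Ndrg1 changed by -2.73 and Kdm3a, a histone demethylase, by -0.75. Ero1l, the oxidase that recharges disulfide isomerases in the ER, rose from 43.7 and 44.8 CPM to 78.9 and 72.9 CPM (0.77 ± 0.08, difference 0.79), and Vegfa, the vascular growth factor, from 42.2 and 35.8 CPM to 66.9 and 65.7 CPM (0.78 ± 0.08, difference 0.91 ± 0.12, adjusted p = 3.5e-09).

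Matrix genes fell. Of 19 genes for matrix and integrins 11 fell and 0 rose, with a median of -0.35. Nid1, a linker of basement membranes, went from 332 and 324 CPM to 86.3 and 82.4 CPM (-1.96 ± 0.05), Hspg2 (perlecan) from 512 and 519.9 CPM to 238 and 227 CPM (-1.15 ± 0.04), and Sparc, which binds collagen, from 325 and 316 CPM to 138 and 127 CPM (-1.28 ± 0.04). Lama1, a laminin chain, changed by -2.43 and Fn1, fibronectin, by -0.37. From 2i/LIF 9 fell and 2 rose (median -0.26).

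Junction genes moved in both directions, with 11 of 22 higher and 5 lower (median 0.27). Epcam rose from 84.6 and 82.4 CPM to 201 and 203 CPM (1.28 ± 0.05), Cdh1, E-cadherin, from 387 and 396 CPM to 502 and 489 CPM (0.34 ± 0.04), and Esrp1, an epithelial splicing factor, from 12.3 and 16.5 CPM to 43.0 and 44.6 CPM (1.58 ± 0.11). Jup, plakoglobin, fell from 246 and 249 CPM to 91.4 and 84.3 CPM (-1.50 ± 0.05), as did P-cadherin (Cdh3, -0.87) and Cldn6 (-0.91). Vim, the intermediate filament of mesenchymal cells, fell from 165 and 159.6 CPM to 88.8 and 84.0 CPM (-0.91 ± 0.05) and changed by -0.03 from 2i/LIF (difference -0.88 ± 0.08, adjusted p = 1.6e-17).

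Of 20 genes of the G1 phase 4 rose and 8 fell (median -0.11). All 3 D-type cyclins, which drive entry into S phase, fell: Ccnd3 from 315 and 334 CPM to 151 and 150.1 CPM (-1.11 ± 0.04), Ccnd1 from 306 and 311 CPM to 200.1 and 198 CPM (-0.63 ± 0.04) and Ccnd2 as given above. Ccnd1 changed by 0.00 from 2i/LIF (difference -0.63 ± 0.06, adjusted p = 2.2e-14). Cdkn1c (p57), an imprinted inhibitor of cyclin-dependent kinases, rose from 9.33 and 11.2 CPM to 42.1 and 43.6 CPM (2.05 ± 0.12), as did Rb1 (0.52). Ccnd1 and Ccnd3 overlap other counted genes.

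In the Myc family 3 of 11 rose and 2 fell, with Mycn up from 110.3 and 112 CPM to 164 and 156 CPM (0.53 ± 0.06), its antagonists Mxd4 and Mga at 1.09 and 0.41, Mxi1 at -0.60, Mycl at -0.87 and Myc not past the test. Targets of p53 gave 4 rises and 3 falls among 14. Of all genes tested 24.2% rose and 24.2% fell, so the counts of both lists were near the general share. Mdm2, the ligase that limits p53, changed by 0.25, the apoptosis gene Pmaip1 by 0.30 and Zmat3 by 0.23. The falls were those of Phlda3 (-0.80), Sesn1 (-0.66) and Ccng1 (-0.23). Of 9 DNA methylation enzymes 4 rose and 3 fell. Uhrf1, which recruits Dnmt1 to replicated DNA, fell from 818 and 825 CPM to 689 and 690.4 CPM (-0.25 ± 0.04), and Tet2, a demethylating dioxygenase, from 304 and 307 CPM to 209 and 194 CPM (-0.60 ± 0.08). Gadd45a rose from 36.8 and 37.5 CPM to 103 and 99.4 CPM (1.44 ± 0.08), a stress gene that overlaps a counted RIKEN transcript, and Apobec1, a cytidine deaminase, rose too (1.12).

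Germline genes, often silenced by promoter methylation in somatic cells, rose in 12 of 14 cases with 0 lower and a median of 1.03, against 4 higher from 2i/LIF (median 0.42). The difference between the steps passed the test for 5 of the 14, all more positive from serum/LIF+2i, beside 17.1% of all genes tested. The calls of Dazl, Ddx4, Stk31 and Taf7l were not kept with each of the 8 libraries of both steps left out in turn. Stra8, the retinoic acid target that starts meiosis, rose from 5.68 and 6.49 CPM to 39.0 and 51.6 CPM (2.89 ± 0.16, difference 2.00 ± 0.22, adjusted p = 3.7e-09). Hormad1, of the meiotic chromosome axis, rose from 20.5 and 23.1 CPM to 51.5 and 48.1 CPM (1.18 ± 0.09), Mael, of the piRNA pathway, from 5.81 and 5.75 CPM to 16.5 and 16.2 CPM (1.50 ± 0.16), and Taf7l, a germ cell TFIID subunit, from 0.811 and 0.852 CPM to 5.53 and 7.03 CPM (2.90 ± 0.34).

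Markers of other cell types were followed through their whole lists. The 2-cell-like markers rose in 5 of 8 cases with 0 lower, and their summed level went from 3.51 and 3.41 CPM to 16.5 and 16.1 CPM. Zscan4d rose from 0.676 and 0.852 CPM to 5.31 and 6.11 CPM (2.86 ± 0.35), with the reservation that the Zscan4 copies are nearly identical. Zscan4a and Zscan4c changed by 2.22 and 1.99 (the latter 2.60 without replicate 1 of 12 h), and Usp17ld was at 0 in all 4 libraries. Of 8 trophoblast markers 1 rose and 5 fell, and the sum went from 57.8 and 60.1 CPM to 29.9 and 32.7 CPM. Among them the keratin Krt8 fell from 12.4 and 12.1 CPM to 3.98 and 5.5 CPM (-1.36 ± 0.19) and Gata3 from 5.81 and 4.79 CPM to 0.995 and 1.22 CPM (-2.22 ± 0.36), with Ascl2 at -1.81 and Plet1 at -1.16.

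Primitive endoderm markers summed to 8.92 and 8.52 CPM at 12 h and 10.2 and 9.68 CPM at 24 h, with Afp and Ttr at 0. In that list Amn fell from 12 and 14 to 3 and 1 counts, 7.18-fold lower (95% interval of the counts 2.53 to 28.8). The fibroblast markers summed to 13.7 and 13.3 CPM and 14.5 and 13.2 CPM, with Postn and Lum at 0. In the fibroblast list 2 of 5 rose and 1 fell, with Mmp2 at 1.15. Thy1, a surface glycoprotein that ES cells also carry, fell from 7.84 and 6.49 CPM to 3.54 and 2.34 CPM (-1.28 ± 0.26).

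Primitive streak genes gave 2 rises and 2 falls among 6, as did neural genes. Eomes fell from 11.8 and 10.4 CPM to 5.42 and 6.93 CPM (-0.83 ± 0.19). Sox21, a Sox factor of neural progenitors, fell from 28.0 and 29.0 CPM to 12.9 and 12.6 CPM (-1.16 ± 0.12), and nestin (Nes) changed by -0.82. The part of any other cell type in the results was not tested.

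The largest rises and falls came from genes of varied function. Fut1, a fucosyltransferase of cell-surface glycans, had 3 and 2 counts at 12 h and 71 and 67 counts at 24 h, 23.7-fold higher (95% interval of the counts 10.3 to 76.9). Vrtn rose from 1.49 and 2.34 CPM to 47.4 and 40.5 CPM (4.47 ± 0.23), Insm1, a neuroendocrine zinc finger factor, from 0.811 and 0.639 CPM to 15.9 and 12.2 CPM (4.26 ± 0.29), and Cxcl12, a chemokine, from 0.541 and 0.532 CPM to 8.52 and 7.95 CPM (3.90 ± 0.35). Next came Serpinf1, a secreted serpin, at 3.90, Enpp2 (autotaxin), which makes lysophosphatidic acid, at 3.88, Car4, a carbonic anhydrase, at 3.78, and Irs4, an insulin receptor substrate, at 3.62. Trim66 rose from 3.38 and 2.66 CPM to 33.4 and 36.2 CPM (3.54 ± 0.18). H2-Q7 (3.61) has near-identical neighbours and its value is uncertain.

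On the falling side, Xaf1, an interferon-inducible gene that antagonises XIAP, had 72 and 79 counts at 12 h and 1 and 3 counts at 24 h, 43.6-fold lower (95% interval of the counts 16.2 to 158). Gjb5, a connexin of gap junctions, went from 48 and 58 to 3 and 2 counts, 23.6-fold lower (95% interval of the counts 9.89 to 74.8). Ntn1, netrin-1, a guidance cue, fell from 114 and 117 CPM to 10.4 and 11.0 CPM (-3.43 ± 0.09), and Mras, a Ras relative, from 47.8 and 44.7 CPM to 4.31 and 2.96 CPM (-3.67 ± 0.14). The chloride channel Ano1 went from 120 and 137 to 5 and 18 counts (-3.64 ± 0.26), and Ubd, a ubiquitin-like protein, from 72 and 92 to 4 and 15 counts (-3.26 ± 0.28). Their size rests on the 24 h libraries, which differed: it was -3.05 for Ano1 and -2.66 for Ubd without replicate 1 of 24 h, and -4.76 and -4.42 without replicate 2. Sh2d4b (-4.24 ± 0.34), Serpinb9b (-3.84 ± 0.39) and Lrrc31 (-3.49 ± 0.35) had between 4 and 6 counts in each 24 h library.

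Abundant genes were taken as those with a mean of at least 100 CPM at the higher of the 2 times, so that a gene could qualify through 1 time alone. Trio, an exchange factor for small GTPases, rose from 35.8 and 32.7 CPM to 164 and 165 CPM (2.27 ± 0.06), and Pim2, a survival kinase, from 34.5 and 35.4 CPM to 139 and 147 CPM (2.03 ± 0.06). The deubiquitinase Usp11 changed by 1.75 and Arhgef2, a microtubule-bound exchange factor, by 1.64. Herpud1, Chac1 and Slc16a3, already described, were also among the 8 largest rises of this class. Ahnak, a giant scaffold protein, fell from 193 and 187 CPM to 27.3 and 25.9 CPM (-2.84 ± 0.06), Ckb, brain creatine kinase, from 344 and 332 CPM to 55.4 and 56.1 CPM (-2.60 ± 0.05), and Mme (neprilysin), a peptidase, from 129 and 128 CPM to 23.3 and 23.5 CPM (-2.45 ± 0.07). Trh, a hormone precursor, changed by -2.38 and Calcoco2, an autophagy receptor that overlaps Ttll6, by -2.40.

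Some of the small counts above include calls that did not hold with 1 library left out. Such a loss does not always mean that the change rests on 1 library. For Dnmt3l the change was between 0.28 and 0.30 whichever of the 4 was left out, whereas Alg12 moved to 0.11 without replicate 2 of 12 h. Of 303 called genes examined one by one, 45 were lost when 1 of the 4 libraries was left out, and in each the direction stayed the same. Leaving out replicate 1 of 12 h ended 14 calls (adjusted p from 0.050 to 0.44), replicate 2 of 12 h 39 (0.053 to 0.77), replicate 1 of 24 h 19 (0.057 to 0.35) and replicate 2 of 24 h 25 (0.053 to 0.72). Besides Pdia3, Eif4ebp1 and Fgf4, given above, and the promoter examples Pycr1 (0.31) and Alg12 (0.36), a mannosyltransferase, they comprised 40 members of the lists, given here with the change in all 4 libraries.

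In signalling these were the FGF co-receptor Klb (0.88) and adaptor Frs2 (0.24), the ERK target Dusp5 (0.63), the Wnt feedback genes Nkd1 (1.59) and Znrf3 (0.31), and Lifr (-0.22), Il6st (-0.18) and Pim3 (-0.27) of the LIF list. All 3 risers of the BMP list belonged here, Bmpr2 (0.48), Bmpr1a (0.14) and Smad5 (0.25), as did Jag2 (0.39), Notch2 (0.29) and Hey1 (-2.24) of the Notch pathway. Among stress and metabolic genes they were Mars (-0.10), Dars (-0.10), Slc1a1 (-1.27), Uqcrq (0.12), which was the riser of the oxidative list, Hspa4l (0.56), which was that of the heat shock list, Pfkfb4 (-0.66), Afg3l2 (-0.14), Mbtps2 (0.18) and the eIF2 kinases Eif2ak2 (-0.24) and Eif2ak3 (0.22), the Perk gene. Cell cycle, p53 and methylation genes among them were Cdk4 (0.09), Cdkn1b (0.23), Bax (0.12), Dnmt1 (-0.09), Dnmt3l (0.29), which overlaps Aire, and Tdg (0.34).

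The markers of other cell types lost in this way were Tcstv1 (2.06), Krt18 (0.83), which was the riser of the trophoblast list, Tfap2a (-0.79), Gata4 (1.68), Nkx1-2 (1.49), Sox1 (0.39) and Msi1 (0.55), along with 3 genes of very low counts. Usp17lc had 2 and 1 counts at 12 h and 8 and 7 at 24 h, 4.24-fold higher (95% interval of the counts 1.26 to 24.0). Dcn had 0 and 0 and then 4 and 5 counts, at least 1.31-fold higher with 3 counts per library standing for 0. T, brachyury, had 7 and 11 and then 2 and 2 counts, 4.98-fold lower (95% interval of the counts 1.66 to 20.5).

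Genes that appeared or disappeared were few. In 31 genes both 12 h libraries had 0 counts and both 24 h libraries more than 3, among them Hoxb1, Epo (erythropoietin) and Tac1 (a tachykinin precursor). The reverse was seen in 11 genes, including Edn1 (endothelin-1) and Cga (a hormone subunit). These examples were chosen after their values were seen, and all are near the floor of detection.

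Genes whose steps differed were sorted by their calls in each medium. Of the 1030 genes with a more positive step from serum/LIF+2i, 792 rose there and 286 fell from 2i/LIF, and of the 1410 with a more negative step, 1039 fell from serum/LIF+2i and 444 rose from 2i/LIF. A gene can be in both counts. The difference is built from the same 2 steps, and over all genes tested 48.4% were called from serum/LIF+2i and 35.1% from 2i/LIF. These counts are therefore no separate evidence of where the change lay. A difference of at least 1 on the log2 scale was reached by 302 genes (2.11%), 170 more positive (1.19%) and 132 more negative (0.924%). The most positive differences included Atf3, Vldlr, Derl3 and Ddit3 of the stress lists, and the most negative included Xaf1, Ntn1 and Thy1.

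**Figure D5:**
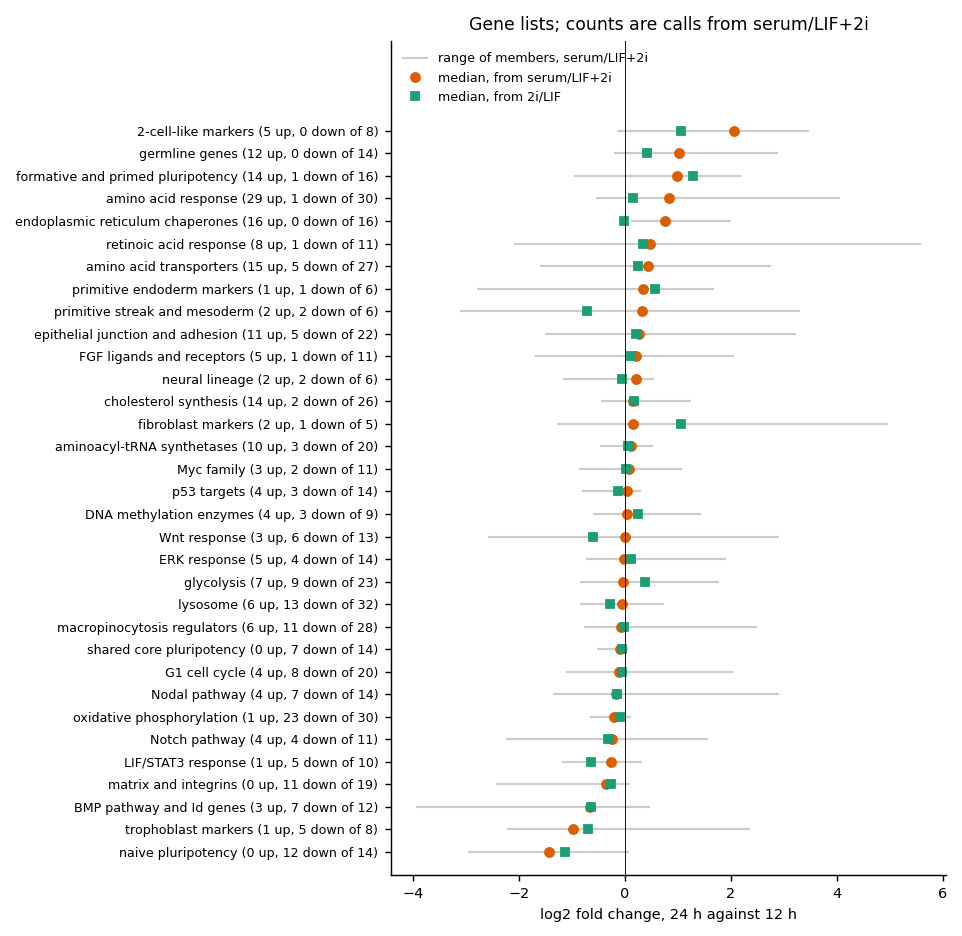
Median log2 fold change from 12 to 24 h of 33 gene lists from serum/LIF+2i (orange circles, with a grey line for the range of members) and from 2i/LIF (green squares); the counts beside each name are the genes that rose and fell among those tested. The media lie far apart for the ER chaperones (0.76 and -0.01), the amino acid response (0.83 and 0.16) and glycolysis (-0.04 and 0.39) and close together for BMP genes, and the ends of a line that rest on a gene with 0 counts at 1 time depend on the prior count.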

How the data were processed

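RNA of mouse ES cells was extracted with TRIzol and made into libraries with a stranded mRNA kit, per the labels' protocols. The submitters' processing notes name fastp, STAR, featureCounts and the build mm10, and versions and the strand setting are not given in the sources used here. The authors deposited one table of counts per gene, whole numbers that are not normalized, for 27179 genes, of which 1049 have no symbol and 5836 are at 0 in all 16 libraries. Groups and replicate numbers come from the sample titles. Totals per library ran from 5931381 to 11142744, so 3 counts, used as the floor, are under 1 CPM. Intervals (95%, exact) and floors cover counting error only, since reads carry no molecular identifiers.

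Genes were filtered with edgeR's filterByExpr (minimum count 10, minimum total 15), which left 14288. All 16 libraries were fitted with a term for each of the 8 groups (TMM scaling, robust quasi-likelihood F test, two-sided, 8 residual degrees of freedom, Benjamini-Hochberg adjustment over all genes tested, called under 0.05). The SE was derived from the F statistic, and CPM uses the TMM-scaled totals. Log2 CPM for correlations used a prior count of 2. The tools were R 4.3.3, edgeR 4.0.16, limma 3.58.1, DESeq2 1.42.0 (alternative only), Python 3.11.15, pandas 2.3.3 and matplotlib 3.10.9. The procedure was tested on simulated data.

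The 33 lists (571 genes), the members and the tests were chosen with earlier results of these data known. A further 5 lists (83 genes) and the ER stress element were added after the first look at the values. Named genes are the 12 largest rises and falls with a mean of at least 5 CPM in the higher of the compared groups and groups that do not overlap, 8 each with at least 100 CPM there, the 4 members of each list with the smallest adjusted p (8 for the naive, formative, transporter and amino acid response lists) with up to 3 that move against their list, and the 8 most positive and 8 most negative differences between the media. Genes named outside this rule were chosen after their values were seen. Alternatives were DESeq2's test, DESeq2 size factors, library size only, no filter, a mean of at least 5 CPM, a replicate block, no ribosomal RNA genes, fewer libraries in the fit, and each replicate left out. Values of near-identical copies, and of genes whose RefSeq models (GRCm38.p6) overlap those of other counted genes, are uncertain. Some genes that the rule names are not reported here.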

Additional observations from a re-analysis of the deposited data

Results flagged for a closer look

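The difference between the 12 to 24 h steps of the media was tested for each gene, and 2440 genes passed (edgeR, adjusted p under 0.05). Maintenance medium and exit base medium cannot be told apart in it. The 8 most positive and 8 most negative differences (serum/LIF+2i minus 2i/LIF, log2) under the rule for named genes follow.

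More positive from serum/LIF+2i was Atf3, by 3.77 ± 0.53 (adjusted p = 7.3e-09), at 1.92 and 1.74 CPM at 12 h and 1.94 and 2.58 CPM at 24 h from 2i/LIF. Trim66 differed by 3.06 ± 0.47 (adjusted p = 2.5e-07), Vldlr by 2.46 ± 0.28 (adjusted p = 1.4e-12), Derl3 by 2.44 ± 0.38 (adjusted p = 1.7e-07), Ddit3 by 2.39 ± 0.23 (adjusted p = 6.5e-13) and Serpinf1 by 2.03 ± 0.35 (adjusted p = 2.6e-06). Taf7l differed by 2.29 ± 0.61 (adjusted p = 0.0032), and without replicate 2 of 12 h from 2i/LIF by 2.08 (adjusted p = 0.061). Hhip, an inhibitor of hedgehog signalling, moved in opposite directions: it went from 6.49 and 4.36 CPM to 9.95 and 10.3 CPM from serum/LIF+2i and from 8.50 and 9.09 CPM to 5.41 and 2.74 CPM from 2i/LIF (difference 2.02 ± 0.32, adjusted p = 3.5e-07).

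More negative from serum/LIF+2i was Xaf1, by -3.04 ± 0.63 (adjusted p = 1.1e-04). Serpinb9b differed by -2.49 ± 0.55 (adjusted p = 2.8e-04), Thy1 by -2.34 ± 0.46 (adjusted p = 5.1e-05), Ntn1 by -1.89 ± 0.13 (adjusted p = 1.3e-23) and Pnp2, a purine nucleoside phosphorylase, by -1.86 ± 0.43 (adjusted p = 6.8e-04). Peg12, an imprinted gene, fell from 7.97 and 8.41 CPM to 2.32 and 2.85 CPM from serum/LIF+2i and rose from 4.66 and 4.28 CPM to 6.80 and 6.69 CPM from 2i/LIF (difference -2.25 ± 0.34, adjusted p = 1.0e-07). Lrtm2, which overlaps Cacna2d4, differed by -2.43 ± 0.72 (adjusted p = 0.01) and Lrrc31 by -1.93 ± 0.52 (adjusted p = 0.0038). Without replicate 2 of 24 h from 2i/LIF these were -1.28 (adjusted p = 0.53) and -1.59 (adjusted p = 0.081).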

How the results depend on the processing

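The step from serum/LIF+2i gave between 5882 and 6990 calls by edgeR under other scalings, filters and sets of libraries and 4940 by DESeq2, and 1610 calls reached a log2 fold change of at least 1. From 2i/LIF, DESeq2 called 3307 genes and 1025 reached that size. For the difference of the steps the counts were 1149 by DESeq2 and 302 at that size, and the share that was more positive was 56.3% among the latter against 42.2% of all calls and 49.5% with library size only. Leaving out each replicate gave 5603 to 5904 calls for the serum/LIF+2i step, 3839 to 3942 from 2i/LIF and 1772 to 1964 for the difference. Library size as the only scaling moved the median of all genes to 0.04 and the share of rises from 49.9% to 55.3%. Replicate numbers did not pair the libraries: deviations of same-numbered libraries at 12 and 24 h correlated at -0.02. A replicate block gave 6922, 5054 and 2475 calls, in the same order. Of the gene values recomputed, 143 of the step and 184 of the difference lost their call, 7 and 47 gained one, and 0 reversed. The cause of these changes was not tested. With 2 libraries a group and totals of 5931381 to 11142744, depth limits the precision of genes near 3 counts, whose intervals are wide.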
